A study of Mus musculus with 12 samples.

Results

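Ly6Chi monocytes are the bone marrow monocytes with a high surface level of the protein Ly6C. They make up 3 of the 12 libraries of RNA sequencing and were set against each of the 3 other groups: Ly6Clo monocytes, eYFP+ macrophages and eYFP- macrophages, with 3 libraries each. All cells came from the bone marrow of 8-week-old female mice of the strain C57BL/6J. Origin was read from a Rank cre/+;R26.eYFP fl/+ reporter, in which Cre made from the Rank locus marks macrophages of embryonic origin with eYFP, and macrophages descending from adult hematopoietic stem cells stay unmarked. Macrophages were sorted by the surface proteins F4/80, CD206 and VCAM1, and monocytes by CD11b, light scatter and Ly6C, so the RNA of these gate proteins does not stand as independent evidence. Whether the monocytes were taken from reporter mice, and whether libraries with the same number share a mouse, are not given in the sources used here. The comparisons ask which transcripts only Ly6Chi monocytes held, and which ones Ly6Clo monocytes shared with macrophages and Ly6Chi monocytes lacked.

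Ly6Chi monocytes, also called classical monocytes, arise from myeloid progenitors of the bone marrow, leave it by way of the chemokine receptor Ccr2 and enter inflamed tissue, where they can become macrophages or dendritic cells. A portion of them turns into Ly6Clo, or non-classical, monocytes, a step that depends on the nuclear receptor Nr4a1, and the Ly6Clo cells then patrol along vessel walls. Macrophages resident in the bone marrow clear dying cells, take up expelled erythroblast nuclei and recycle iron.

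The Ly6Chi libraries held 28432458 to 33156563 counts, in a series that ran from 26390927 to 48618187. They resembled each other closely, with a Pearson correlation of 0.972 to 0.975 between their log-scale profiles, a description across genes. In the Ly6Clo group the same measure ran from 0.793 to 0.954. The low end belonged to Ly6Clo replicate 2, in which 16434 genes had a count and GC-rich genes lay 1.27 log2 units below the other Ly6Clo libraries at the median. Replicate 1 of the eYFP+ macrophages had 17.2% of its counts in its 10 highest genes, and its GC-rich genes lay 0.736 log2 units below its group. Counts of members called are also given without these 2 libraries where that moved them by over 1.5 times.

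The labels fitted the markers. Ly6c2, which encodes the stained Ly6C protein, had 6963, 5966 and 5809 TPM (transcript levels per gene length, scaled to the same sum in each library) in the Ly6Chi libraries against 32.4 to 77.5 in Ly6Clo monocytes and 0.231 to 23.0 in macrophages. DESeq2 gave no p for Ly6c2 because of its outlier cutoff, and with the cutoff off it was called higher in all 3 contrasts. Ly6c1 and Ly6c2 are near-identical neighbours, so some of their reads may be counted for the wrong one or lost. The integrin Itgam, the RNA of the gate protein CD11b, lay at 78.0 to 103 TPM in Ly6Chi and 22.4 to 50.4 TPM in Ly6Clo monocytes, above the 0.205 to 2.47 TPM of macrophages. The macrophage gate genes Vcam1 (14.4 to 17.7 TPM), Mrc1 (5.72 to 8.40 TPM) and Adgre1 (233 to 276 TPM) were low in Ly6Chi monocytes, while macrophages held 8965 to 14369, 344 to 1820 and 1184 to 1984 TPM.

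**Figure D1:**
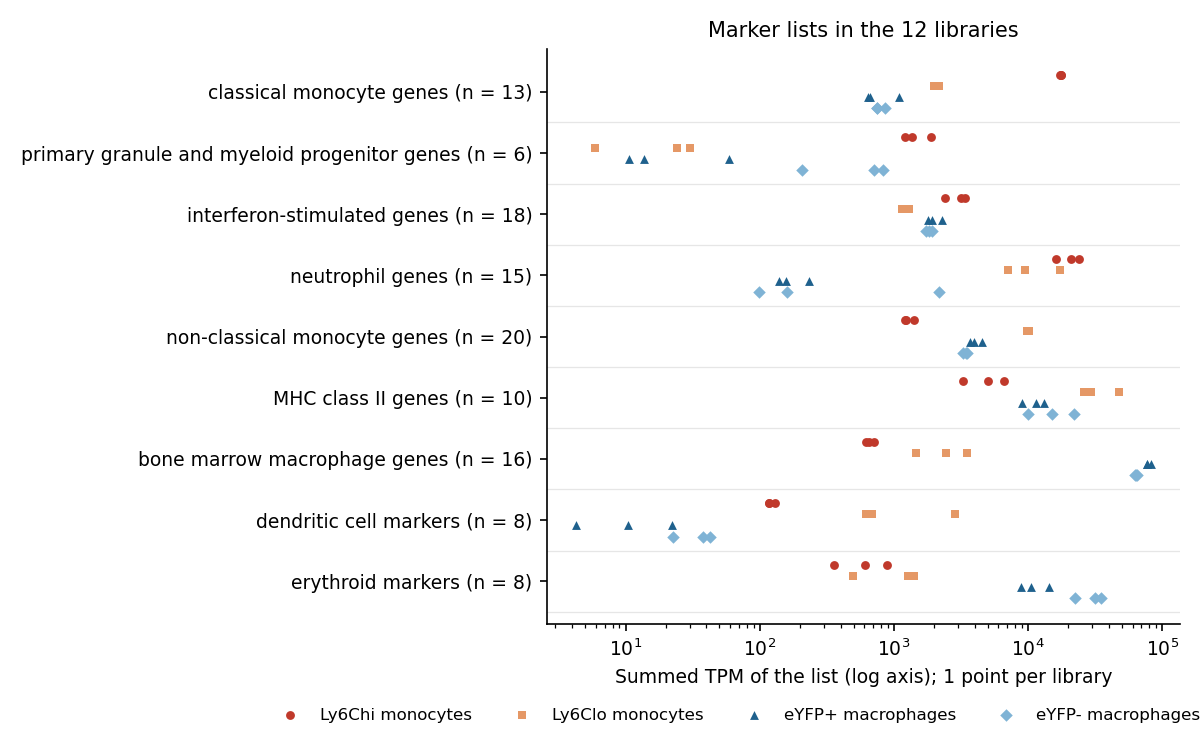
Summed TPM of 9 gene lists (x axis, log scale) in each of the 12 libraries, 1 point per library, coloured by group. The 3 Ly6Chi libraries lay above all others in the classical monocyte list (17200 to 17700) and below all others in the non-classical list (1210 to 1420), the MHC class II list and the macrophage list (620 to 712).

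Against Ly6Clo monocytes, 789 genes were higher and 1070 lower in Ly6Chi monocytes (DESeq2, Benjamini-Hochberg adjusted p under 0.05), together 8.62% of the 21567 genes tested. The balance of directions depended on the model: under a replicate block 1198 were higher and 1057 lower, and edgeR called 829 in all. Against eYFP+ macrophages 2461 were higher and 3233 lower (24.5% of 23203), and against eYFP- macrophages 2304 were higher and 3377 lower (27.4% of 20749). The 3 contrasts share the Ly6Chi libraries, so their overlap is given as the count that defines the sets below and not as evidence. In all 3 contrasts, 296 genes were higher (1.43% of 20749) and 559 were lower (2.69%). Fewer genes passed edgeR's quasi-likelihood test, which called 170 of the first kind, 169 of them among the 296, and 297 of the second, all among the 559. Without Ly6Chi replicate 1, 2 or 3, the higher count was 162, 164 or 170, and without Ly6Clo replicate 2 and eYFP+ replicate 1 together it was 607, of which 286 were among the 296.

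The 296 higher genes took 13.9% to 14.3% of all TPM in the Ly6Chi libraries. Ly6Clo monocytes gave them 5.15% to 5.87% and macrophages 1.45% to 1.76%. The 559 lower genes took 1.09% to 1.46% of TPM in Ly6Chi monocytes, 6.34% to 8.82% in Ly6Clo monocytes and 12.3% to 17.1% in macrophages. Since the genes were chosen by these groups, the shares are a description of size. In bulk samples, fewer cells of a type and less RNA per cell cannot be told apart.

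The genes held highest by Ly6Chi monocytes alone included surface receptors and a coagulation factor. Lilra6, an immunoglobulin-like receptor of myeloid cells, had 6252, 7540 and 6765 normalized counts in the Ly6Chi libraries. It had 320, 300 and 280 in Ly6Clo monocytes, 265, 101 and 206 in eYFP+ macrophages and 176, 205 and 182 in eYFP- macrophages. Every Ly6Chi library thus lay far above the 9 others, where the rule for naming genes required no overlap. The macrophage groups overlapped with each other, and the Ly6Clo libraries lay just above both. The log2 fold change of Lilra6 was 4.51 ± 0.34 (SE) against Ly6Clo, 5.17 ± 0.34 against eYFP+ and 5.19 ± 0.34 against eYFP- cells, with a largest adjusted p of 4.86e-37.

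F13a1, the catalytic subunit of the clotting factor that cross-links fibrin, reached 96848, 104050 and 93365 normalized counts in Ly6Chi monocytes. Ly6Clo monocytes held 2914, 2444 and 1517 and macrophages 66.6 to 309, so F13a1 stepped down from Ly6Chi to Ly6Clo monocytes and again to macrophages without overlap. Its log2 fold changes were 5.42 ± 0.54, 9.46 ± 0.54 and 9.29 ± 0.54 in the order of contrasts above. Ly6c1, a relative of the gate antigen, had 2133, 1891 and 2044 normalized counts in Ly6Chi monocytes, 26.4 to 39.9 in Ly6Clo monocytes and 0.740 to 11.7 in macrophages (log2 fold changes 6.00 ± 0.50, 9.53 ± 0.67 and 8.28 ± 0.56).

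The other leading genes had varied roles. Capg, which caps actin filaments, had 27817 to 28863 normalized counts in Ly6Chi monocytes, 229 to 608 in macrophages, and in Ly6Clo monocytes 2265, 6920 and 2339, of which the highest was replicate 2. Anxa2, a calcium-dependent membrane-binding protein, had 44281 to 47056 normalized counts against 14925 to 16494 in Ly6Clo monocytes and 4652 to 7015 in macrophages. Its partner S100a10 lay at 734, 969 and 784 TPM, above 134 to 258 TPM in Ly6Clo monocytes and 8.26 to 63.2 TPM in macrophages. Stx3, a syntaxin of membrane fusion, was 2.61 ± 0.30 log2 units higher than in Ly6Clo monocytes, with 2034 to 2090 against 299 to 362 normalized counts.

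Pstpip2, an adaptor of the actin cortex, showed the smallest step of the named genes, 1.16 ± 0.19 log2 units over Ly6Clo monocytes (4664 to 5727 against 2146 to 2384 normalized counts). Gas7, Tbc1d2, a GTPase-activating protein for Rab proteins, and Ecm1, a secreted matrix protein, were 4.33 ± 0.67, 2.89 ± 0.45 and 3.75 ± 0.41 log2 units above Ly6Clo monocytes. Crybb1, best known as a lens crystallin, had 453, 481 and 748 normalized counts in Ly6Chi monocytes and at most 20.9 in any other library. Aprt, which salvages adenine, had 7939 to 9629 normalized counts against 890 to 2133 in the 9 others. Ifi211, an interferon-inducible protein, had 3738, 3209 and 3637 against 574 to 1314 in the 9 others, and was higher than in Ly6Clo monocytes by 2.49 ± 0.28 log2 units.

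**Figure D2:**
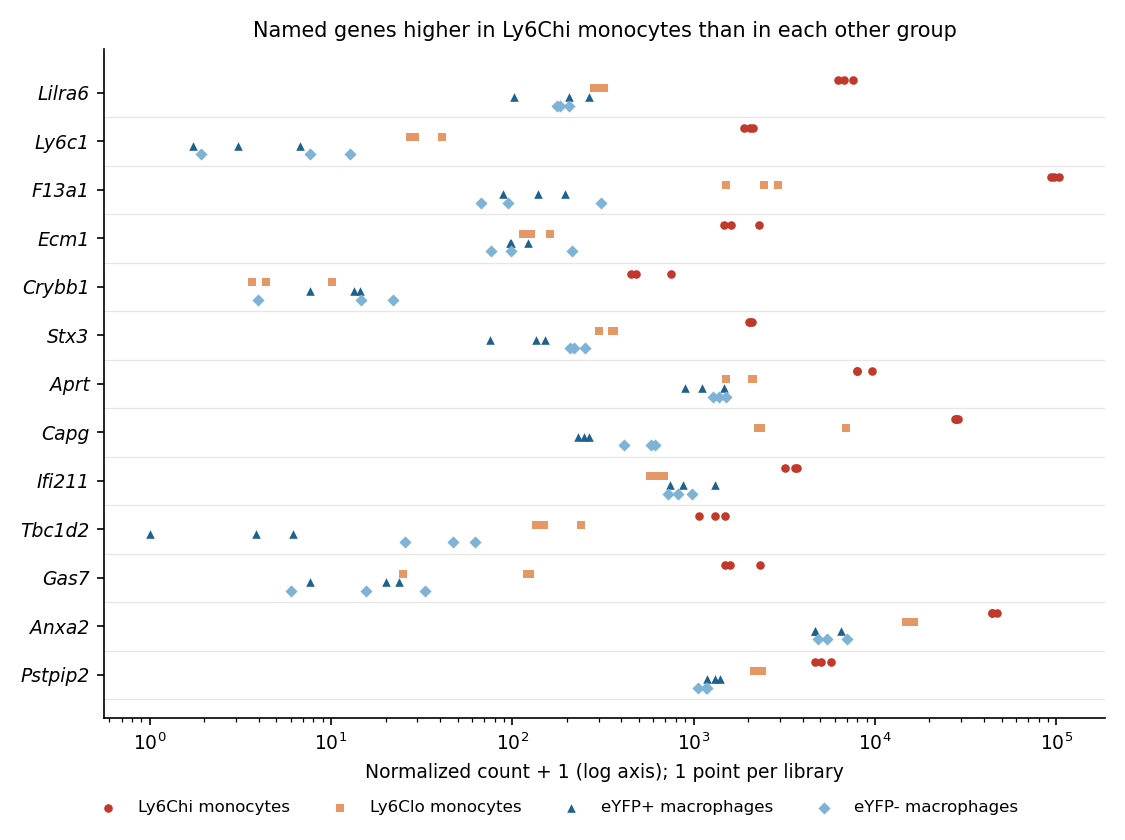
Normalized counts + 1 (x axis, log scale) of 13 genes higher in Ly6Chi monocytes than in each other group, 1 point per library. All 3 Ly6Chi points of each gene lie right of the other 9, which the naming rule required. The genes run from Pstpip2, with the smallest step, to F13a1 at 93365 and above.

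Promoters were read from RefSeq (build GRCm38.p6) for these genes, which share a direction because they were chosen for it. Both strands were searched for 6 short motifs in the 250 bases before and 50 after each start. The first 2 of the named higher genes with a motif outside annotated exons follow, with the matched letters in capitals. Lilra6 (chr7:3915504-3915661, minus strand, bases -160 to -3 from the start) holds GAGGAAGT, a core of sites for the myeloid factor PU.1, and CCACACCC, a core of sites for KLF factors. Ifi211 (chr1:173913047-173913206, minus strand, bases -160 to -1) holds a match to the interferon-response letters GAAANNGAA.
Lilra6: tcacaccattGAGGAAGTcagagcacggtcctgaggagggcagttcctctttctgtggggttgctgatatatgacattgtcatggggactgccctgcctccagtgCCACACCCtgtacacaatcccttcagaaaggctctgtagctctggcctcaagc
Ifi211: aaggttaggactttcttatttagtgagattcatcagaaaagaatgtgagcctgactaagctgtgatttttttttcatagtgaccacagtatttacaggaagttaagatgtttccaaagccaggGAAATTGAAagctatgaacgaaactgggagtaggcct

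Of the 296 higher genes, 215 had a promoter in the table and 35 of those held GAAANNGAA (16.3%), against 9.13% of the genes tested and 9.76% of all promoters. The KLF letters were in 10.7% of these promoters, against 4.65% of tested genes and 4.09% of all. GAGGAAGT was in 5.58% (3.95% and 3.69%). The nuclear receptor letters AAAGGTCA bound by Nr4a1 were in 0.93% (1.39% and 1.70%), the C/EBP letters TTGCGNAA in 1.86% (1.37% and 0.918%) and the E2F letters TTTGGCGC in 1.40% (0.982% and 0.585%). These shares count a gene once if any of its starts holds the letters. Matches of 2 motifs shared bases in 4 promoters of the whole table. The values describe letters and carry no test.

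By level, 52 genes had a TPM of at least 1 in all 3 Ly6Chi libraries and under 1 in all 9 others, 0.121% of the 42933 genes with a count. Tarm1, an activating receptor of the leukocyte receptor complex, led with 17.8, 19.7 and 21.9 TPM and at most 0.710 TPM elsewhere. Saa3, an acute-phase serum amyloid, had 10.5, 8.46 and 10.9 TPM and at most 0.155 TPM elsewhere. The matrix proteoglycan Vcan had 6.89, 11.4 and 8.24 TPM and at most 0.104 TPM elsewhere. Spink2, a serine protease inhibitor, had 6.598 to 11.2 TPM and was listed at 0 in 8 of the other 9 libraries. Rnase2b, a ribonuclease of the eosinophil-associated family, had 5.94 to 9.09 TPM. The other leading genes were Clec4b2, Pabpc1l, Nrg1, Atrnl1 and Mcf2l, at 4.41 to 7.31 TPM. Mcf2l missed the threshold against Ly6Clo monocytes (adjusted p = 0.11), and 23 of the 52 were among the 296. With edgeR, Clec4b2, Pabpc1l, Nrg1 and Atrnl1 were not called against Ly6Clo monocytes either (adjusted p = 0.091, 0.11, 0.12 and 0.070), nor was Clec4b2 against eYFP+ macrophages (adjusted p = 0.055). Without the 2 libraries that stand apart Clec4b2 was not called in all 3 contrasts. In DESeq2 with a replicate block, Tarm1 was not called against Ly6Clo monocytes (adjusted p = 0.072), Mcf2l was not called against eYFP- macrophages (adjusted p = 0.092) and Spink2 was called in no contrast (adjusted p = 0.27, 0.21 and 0.12).

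Of 13 classical monocyte genes, 7 were higher in all 3 contrasts, where 1.43% of all genes were. Of the same 13, 12 lay above all 9 other libraries, where 7.08% of tested genes did. The 7 were Ly6c1, F13a1, Ccr2, Chil3, Fn1, Vcan and Plac8. The list also holds Ly6c2, which encodes the gate protein, so Ly6c2 and its near-identical neighbour Ly6c1 are not independent evidence. Against Ly6Clo monocytes 7 of the 12 tested were higher (median log2 fold change 2.30, with 0.02 over all genes tested, of which 3.66% were higher). Without the 2 libraries that stand apart it was 11 of 12. Against eYFP+ macrophages 11 were higher (median 8.35), and against eYFP- macrophages 11 (median 7.17), beside 10.6% and 11.1% of all genes. The median over all genes tested was -0.09 and -0.08 there.

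Ccr2, the receptor for exit from the marrow, lay at 666, 632 and 723 TPM in Ly6Chi monocytes, 201, 204 and 132 TPM in Ly6Clo monocytes and 1.10 to 8.90 TPM in macrophages. The difference from Ly6Clo monocytes was 1.92 ± 0.42 log2 units. Chil3, a chitinase-like lectin, had 2761, 4207 and 3957 TPM against 110 to 344 TPM in Ly6Clo monocytes, though edgeR did not call that difference (adjusted p = 0.15). Fn1, the matrix protein fibronectin, had 540 to 671 TPM against 0.00738 to 4.62 TPM. Plac8 had 2097 to 2530 TPM against 336 to 605 TPM. Hp, haptoglobin, was 9.56 ± 0.56 and 6.64 ± 0.56 log2 units higher than in macrophages, and its 1596 to 1852 TPM lay above the 627 to 791 TPM of Ly6Clo monocytes without passing the test (adjusted p = 0.13). Mgst1 overlapped between groups and was not called in any contrast.

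Primary granule genes, which are made by myeloid progenitors, were all higher than in Ly6Clo monocytes (6 of 6, median 5.81, where 3.66% of all genes were) and than in eYFP+ macrophages (6 of 6, median 5.63, beside 10.6%). With edgeR it was 4 and 5 of the 6. Against eYFP- macrophages only Prtn3 and Fcnb of the 6 were higher, beside 11.1% of all genes, and none was lower. Mpo, myeloperoxidase, had 427, 273 and 266 TPM in Ly6Chi monocytes, 2.19 to 8.97 TPM in Ly6Clo monocytes and 129, 424 and 512 TPM in eYFP- macrophages, so the first and last groups overlapped. Elane, neutrophil elastase, had 469 to 788 TPM against at most 3.92 TPM in Ly6Clo monocytes and 11.4 to 110 TPM in eYFP- macrophages, without a call in that contrast (adjusted p = 0.15). Prtn3, proteinase 3, had 222, 146 and 162 TPM against 32.8 to 90.2 TPM in eYFP- macrophages. Fcnb, a ficolin, had 340, 241 and 319 TPM and at most 11.1 TPM in any other library, though edgeR did not call it in every contrast (largest adjusted p = 0.072).

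Of 10 stem and progenitor genes, among them Kit, Cd34 and Myb, none was called against Ly6Clo monocytes by DESeq2 or edgeR (2 had an unadjusted p under 0.05, and 2 were lower by DESeq2 without the 2 libraries that stand apart), and 6 of 10 were lower than in eYFP- macrophages, where 16.3% of all genes were. Against eYFP+ macrophages 2 of the 10 were higher and 1 lower (1 and 1 with edgeR), beside 10.6% and 13.9% of all genes. Neutrophil genes such as Camp and Ltf, fixed as markers of another cell type, summed to 16000 to 23800 TPM in Ly6Chi monocytes, 7050 to 17200 in Ly6Clo monocytes, 139 to 234 in eYFP+ and 99.3 to 2180 in eYFP- macrophages, most of it from S100a8 and S100a9. Of 12 tested, 9 were higher than in eYFP+ and 7 than in eYFP- macrophages, and 2 were lower than in Ly6Clo monocytes, beside 10.6%, 11.1% and 4.96% of all genes. With edgeR none was lower than in Ly6Clo monocytes. Without the 2 libraries that stand apart none was lower and 1 was higher there, and 4 were higher than in eYFP- macrophages. Their part in the granule result was not tested.

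S100 proteins are small calcium sensors. Of 9 genes, S100a4, S100a6 and S100a10 were higher in all 3 contrasts, where 1.43% of all genes were. S100a6 had 1628, 1713 and 1540 TPM in Ly6Chi monocytes, 372 to 453 TPM in Ly6Clo monocytes and 2.44 to 13.1 TPM in macrophages. S100a4 had 1031 to 1262 TPM against 379, 29.5 and 332 TPM in Ly6Clo monocytes, the low value being replicate 2, and edgeR did not call that difference (adjusted p = 0.14). S100a8, a subunit of the neutrophil protein calprotectin, overlapped with Ly6Clo monocytes at 7320 to 11061 TPM against 2927 to 7653 TPM and was not called there (adjusted p = 0.59).

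Interferon-stimulated genes were higher in Ly6Chi than in Ly6Clo monocytes for 13 of 18 (median log2 fold change 1.65), where 3.66% of all genes were. Against eYFP+ macrophages 9 were higher and Ifi44 was lower, and against eYFP- macrophages 8 were higher, beside 10.6% and 11.1% of all genes. Mx1, Oasl2, Usp18, Ifi204, Zbp1 and Cmpk2 were higher in all 3 contrasts. Oasl2 had 294, 202 and 260 TPM in Ly6Chi monocytes, 72.7 to 85.1 TPM in Ly6Clo monocytes and 42.4 to 70.8 TPM in macrophages. Mx1, which blocks viral replication, had 111, 76.1 and 88.6 TPM against 17.7 to 39.9 TPM in the 9 others. Bst2 was higher only against Ly6Clo monocytes (344 to 421 against 163 to 234 TPM). With edgeR the higher counts were 11, 8 and 6, Cmpk2 no longer being called in all 3 contrasts, and without the 2 libraries that stand apart they were 17, 13 and 12. The list summed to at least 2409 TPM in each Ly6Chi library and at most 2263 TPM in the others. Replicate 2 was the lowest of the 3 Ly6Chi libraries for all 18 genes, and what set it apart was not tested.

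A few further genes were higher in all 3 contrasts. Complement C3 had 501, 538 and 472 TPM against 22.6 to 74.4 TPM in Ly6Clo monocytes and 4.02 to 37.7 TPM in macrophages. Msr1, a scavenger receptor, had 97.4 to 117 TPM against 12.7 to 19.5 TPM in Ly6Clo monocytes, 48.1 to 56.8 TPM in eYFP+ and 10.003 to 26.9 TPM in eYFP- macrophages. The chemokine receptor Ccr1 had 36.8, 60.3 and 60.9 TPM and at most 12.1 TPM elsewhere, and Itga1, a collagen-binding integrin subunit, 2.95 to 4.82 TPM and at most 0.902 TPM elsewhere. Among 19 glycolysis genes, Pkm (pyruvate kinase) and Hk2 (a hexokinase) were higher in all 3 (1.43% of all genes), Hk2 not with edgeR (largest adjusted p = 0.061). Pkm had 550 to 621 TPM against 306 to 349 TPM in Ly6Clo monocytes and 88.4 to 132 TPM in macrophages. Of 39 transcription factors, Id1, an inhibitor of helix-loop-helix factors, was the only one higher in all 3, near the 1.43% of all genes, with 45.1, 49.97 and 29.3 TPM against at most 19.5 TPM, and edgeR did not call it in all 3 (largest adjusted p = 0.13).

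Among the 296 higher genes, Ly6Clo monocytes lay above both macrophage groups in 82, below both in 6, and were called against neither in 156. The other 52 differed from 1 macrophage group or in opposite directions. F13a1, Ccr2, Plac8, S100a6 and Pkm belong to the genes that descend from Ly6Chi over Ly6Clo monocytes to macrophages, while Lilra6, Crybb1 and Saa3 were low in all 9 other libraries.

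**Figure D3:**
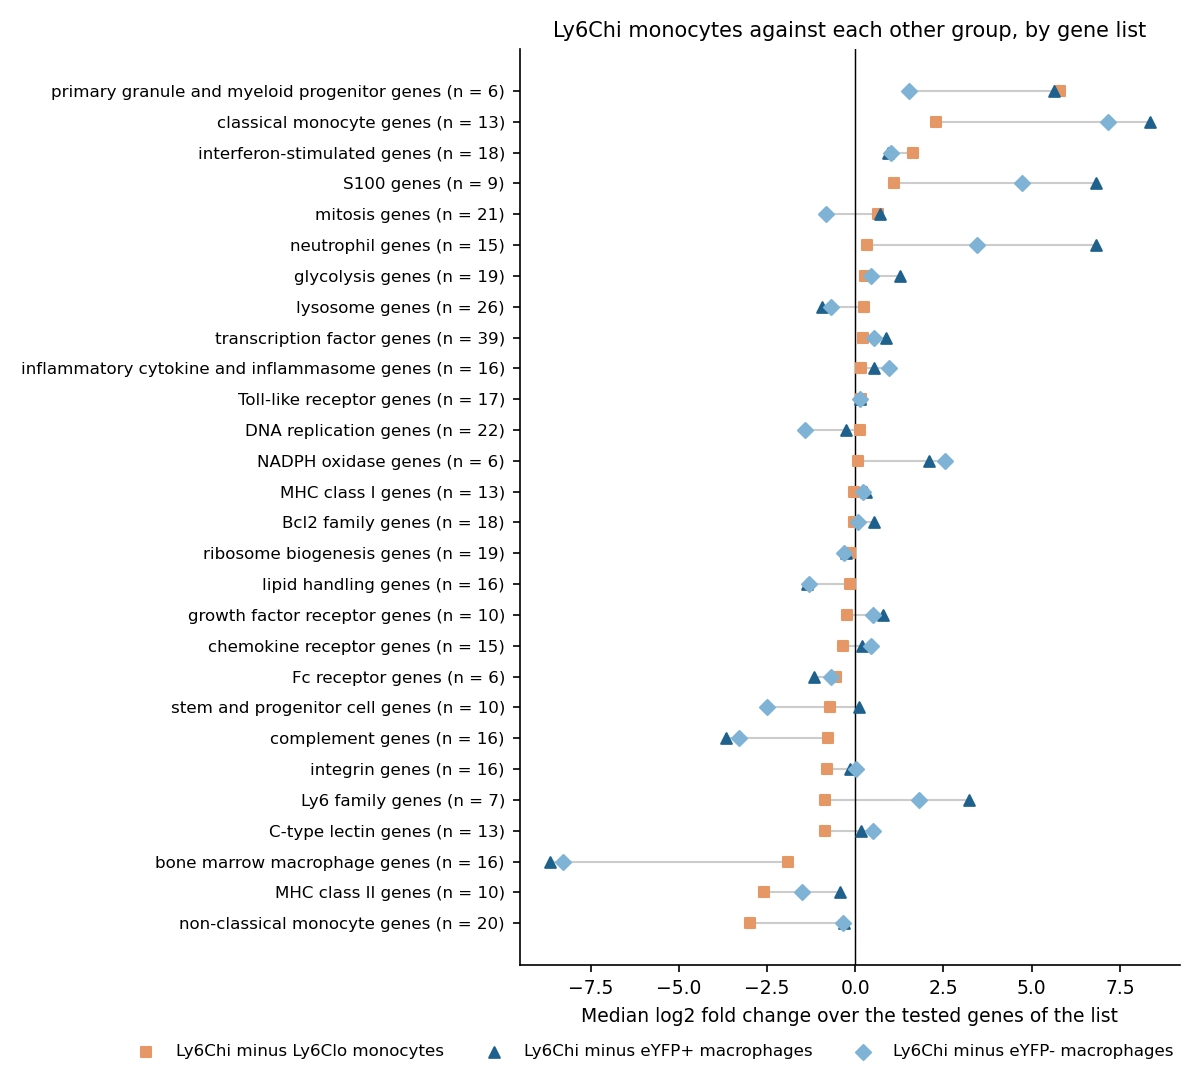
Median log2 fold change (x axis) over the tested genes of 28 gene lists, with 1 symbol for each contrast of Ly6Chi monocytes. Squares (against Ly6Clo) run from -2.99 for non-classical monocyte genes to 5.81 for primary granule genes, and the macrophage list reaches -8.67 against eYFP+ macrophages.

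The named genes lower in Ly6Chi monocytes were led by Fabp4, a fatty acid-binding protein. It had 80.6, 94.7 and 66.8 normalized counts in Ly6Chi monocytes, 6029, 3400 and 8281 in Ly6Clo monocytes, 10946, 10925 and 13431 in eYFP+ macrophages and 10828, 9249 and 10664 in eYFP- macrophages. No library of the other groups came near the Ly6Chi level, where the rule for naming genes required no overlap. The log2 fold changes were -6.19 ± 0.36, -7.19 ± 0.36 and -6.99 ± 0.36. Pparg, the nuclear receptor that drives Fabp4 in many cells, had 295, 151 and 156 normalized counts in Ly6Chi monocytes, 5690, 10081 and 5480 in Ly6Clo monocytes and 10570 to 18528 in macrophages.

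Acp5, the tartrate-resistant acid phosphatase known from osteoclasts, had 641, 589 and 833 normalized counts against 7875, 11669 and 12094 in Ly6Clo monocytes and 11865 to 16345 in macrophages. Here 1 Ly6Clo library overlapped with macrophages. Serpinb6a, an intracellular protease inhibitor, and Slc29a1, a nucleoside transporter, had a step at each boundary. Serpinb6a had 426 to 508, then 2981 to 3281, then 19590 to 30098 normalized counts in Ly6Chi monocytes, Ly6Clo monocytes and macrophages. Slc29a1 had 1471 to 1798, then 6337 to 8734, then 21049 to 24962. Cd82, a tetraspanin, went from 1083 to 1175 over 7777 to 11059 to 31686 to 63845, and Agmo, an ether lipid-cleaving enzyme, from 42.4 to 52.2 over 449 to 705 to 949 to 1990.

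Lilra5 and Cd72, also named genes, had their highest group mean in Ly6Clo monocytes. Lilra5, an activating receptor of the same family as Lilra6, had 87.0, 81.4 and 200 normalized counts in Ly6Chi monocytes, 7324, 14462 and 11427 in Ly6Clo monocytes and 1969 to 4533 in macrophages. So the pair of receptors lay in opposite directions: Lilra6 was highest in Ly6Chi and Lilra5 in Ly6Clo monocytes. Cd72, an inhibitory receptor best known from B cells, had 15.8 to 31.6 normalized counts in Ly6Chi monocytes. It had 893 to 1776 in Ly6Clo monocytes and 386 to 1011 in macrophages, so Ly6Clo monocytes and macrophages overlapped. The B cell marker list summed to 28.3 to 34.8 TPM in Ly6Chi, 54.0 to 140 in Ly6Clo and 456 to 701 in macrophage libraries, mostly from Cd79b. Of its 6 genes 1 was lower in all 3 contrasts, beside 2.69% of all genes. Pf4, a chemokine stored in platelets, had 29.7, 17.003 and 4.86 normalized counts, then 683 to 961 and 1264 to 2467, and it made up most of the megakaryocyte list, which summed to 2.13 to 3.98 TPM in Ly6Chi, 60.3 to 77.4 in Ly6Clo and 122 to 201 in macrophage libraries. The part of other cells in these values was not tested.

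**Figure D4:**
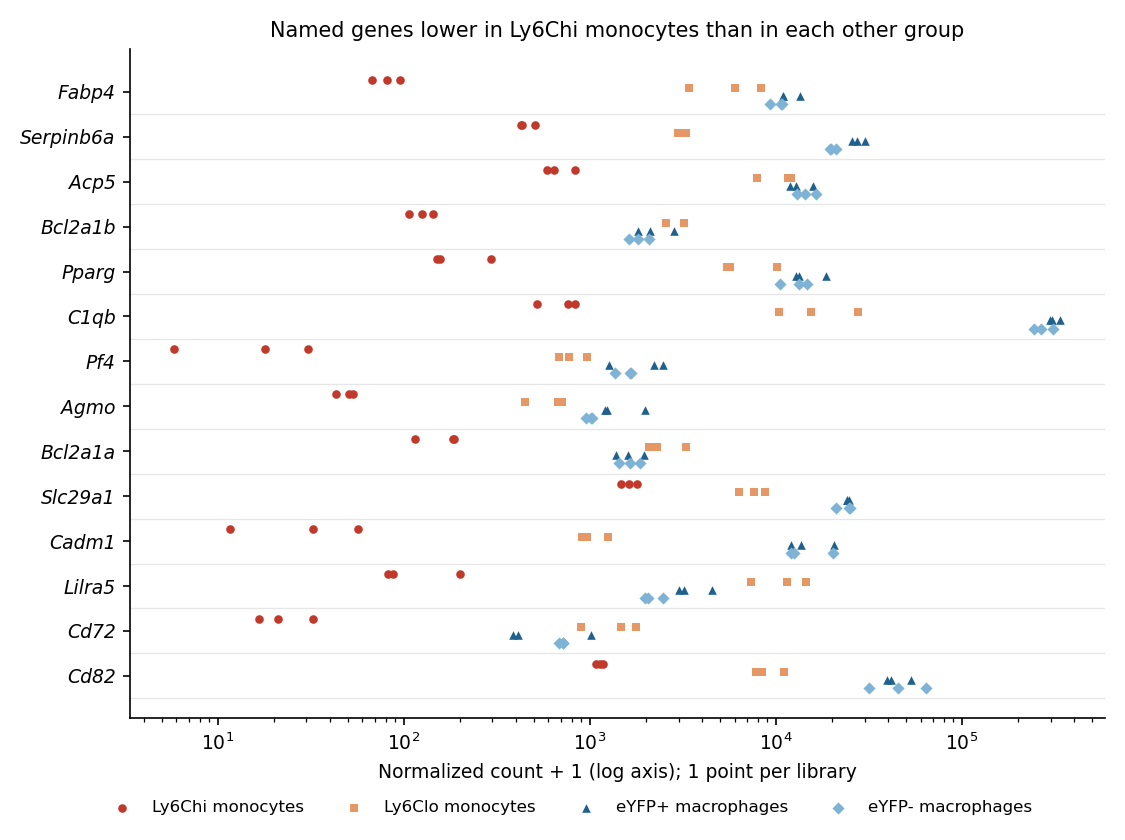
Normalized counts + 1 (x axis, log scale) of 14 genes lower in Ly6Chi monocytes than in each other group, 1 point per library. For Acp5 1 of the 3 Ly6Clo points falls among the macrophage points and the others lie left of them. The Ly6Clo points lie right of all macrophage points for Lilra5 and well left of them for C1qb and Cadm1.

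Bcl2a1a, Bcl2a1b and Bcl2a1d, copies of a survival factor of the Bcl2 family, were the only 3 of 18 family members lower in all 3 contrasts, beside 2.69% of all genes. Bcl2a1b had 124, 106 and 142 normalized counts in Ly6Chi monocytes, 2555, 3222 and 2565 in Ly6Clo monocytes, and 1619 to 2826 in macrophages. Bcl2a1d had 15.2 to 17.1 TPM against 292 to 364 TPM in Ly6Clo monocytes and 47.8 to 54.1 TPM in macrophages. The copies share almost all their sequence, so how reads split between them is uncertain. Mcl1, another survival factor of the family, was not called against Ly6Clo monocytes (95.9 to 101 against 77.7 to 116 TPM, log2 fold change -0.01 ± 0.30) and was higher than in macrophages. Bcl2 itself was lower than in Ly6Clo monocytes alone (0.570 to 1.24 against 9.70 to 13.1 TPM).

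The upstream sequences of Bcl2a1b and Bcl2a1a show how alike the copies are, and both hold the PU.1 letters, in capitals. Bases -160 to -65 of Bcl2a1b (chr9:89199113-89199208, plus strand) and -160 to -21 of Bcl2a1a (chr9:88956760-88956899, plus strand) are given. Over the 96 bases that end both stretches, 95 were identical. Acp5 (chr9:22135747-22135906, minus strand) holds the KLF letters at 2 places, read there on the other strand as GGGTGTGG, and Pf4 (chr5:90772275-90772434, plus strand) holds the PU.1 letters as ACTTCCTC just before its start. The last 2 stretches run from base -160 to -1, and all are GRCm38.p6.
Bcl2a1b: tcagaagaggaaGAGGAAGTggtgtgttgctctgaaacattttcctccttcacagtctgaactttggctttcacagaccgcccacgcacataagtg
Bcl2a1a: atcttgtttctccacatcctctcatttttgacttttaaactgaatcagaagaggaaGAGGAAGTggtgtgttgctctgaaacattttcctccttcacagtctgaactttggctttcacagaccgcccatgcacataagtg
Acp5: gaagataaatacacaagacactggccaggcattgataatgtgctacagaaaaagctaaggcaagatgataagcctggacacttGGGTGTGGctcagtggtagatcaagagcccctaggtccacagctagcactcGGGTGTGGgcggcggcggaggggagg
Pf4: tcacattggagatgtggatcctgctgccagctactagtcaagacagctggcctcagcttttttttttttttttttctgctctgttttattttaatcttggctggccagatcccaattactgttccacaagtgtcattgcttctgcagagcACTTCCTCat

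Of the 559 lower genes, 376 had a promoter in the table. The PU.1 letters were in 5.85% of them, the KLF letters in 7.45%, the interferon-response letters in 11.7%, AAAGGTCA in 2.13%, TTGCGNAA in 1.60%, and TTTGGCGC in 0 of the 376. Among the genes tested the shares were 3.95%, 4.65%, 9.13%, 1.39%, 1.37% and 0.982% in the same order, and among all promoters 3.69%, 4.09%, 9.76%, 1.70%, 0.918% and 0.585%.

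How far Ly6Clo monocytes shared the 559 genes with macrophages differed between genes. Taking the mean of the 6 macrophage libraries as the measure, Ly6Clo monocytes held a median of 54.8% of the macrophage level and Ly6Chi monocytes 7.23%. In bands chosen after the values were seen, 253 genes (45.3%) were at 50% to 200% of the macrophage level in Ly6Clo monocytes and 37 (6.62%) above 200%. Another 174 lay at 10% to 50%, 72 at 2% to 10%, and 23 under 2%. By the contrasts of the same fit, Ly6Clo monocytes were below both macrophage groups for 216 genes, above both for 23, and called against neither for 240. In Ly6Chi monocytes 39 of the 559 had no count in any of the 3 libraries. All 3 libraries lay below the 9 others for 454 of the 559 (4.94% of tested genes did so). The 559 were chosen from the same counts, so their high share follows from that choice and is no evidence.

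**Figure D5:**
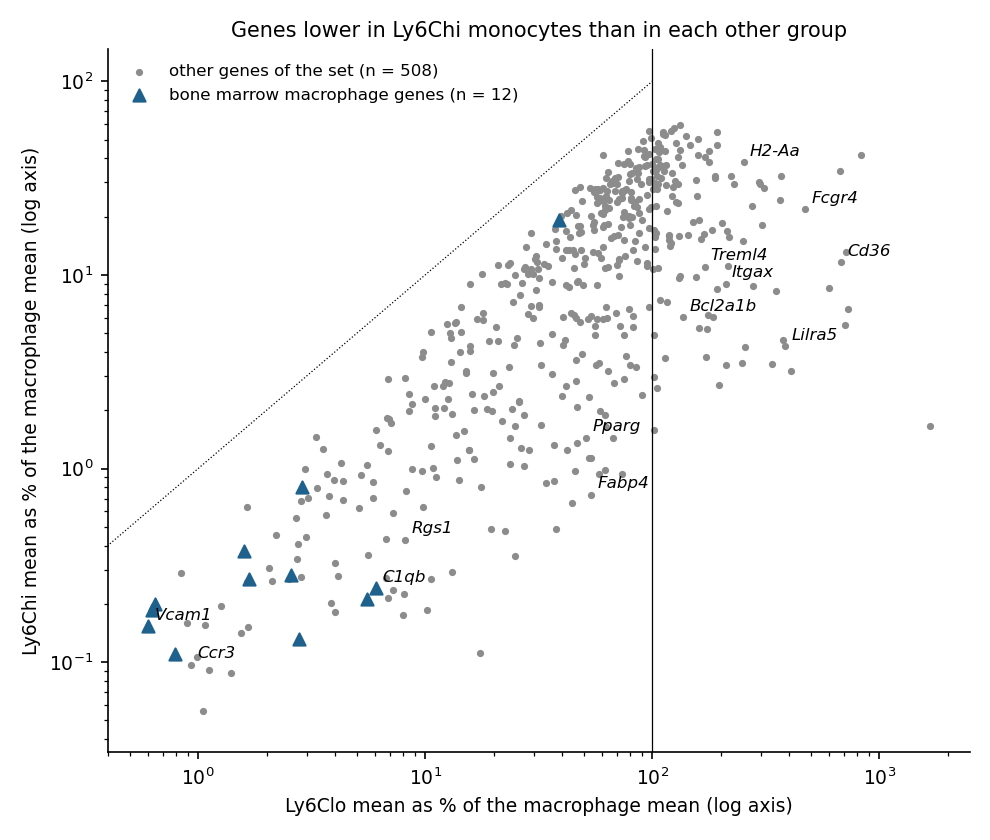
Mean level in Ly6Clo (x axis) and Ly6Chi monocytes (y axis) as a percent of the mean of the 6 macrophage libraries, on log axes, for 520 of the 559 lower genes (the 39 at 0 in Ly6Chi monocytes are not drawn). Points spread from Vcam1, at 0.603% in Ly6Clo monocytes, to Cd300e, at 1673%, and most of the 12 bone marrow macrophage genes (triangles) lie at the low end.

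The low end of this range held the genes that define bone marrow macrophages. Of 16 such genes, 12 were lower in Ly6Chi than in Ly6Clo monocytes (median log2 fold change -1.91, against 4.96% of all genes lower) and all 16 were lower than in each macrophage group (medians -8.67 and -8.30, beside 13.9% and 16.3%). Vcam1, Mrc1 and Adgre1 are among them and encode gate proteins, so their calls are not independent evidence. C1qb, a chain of the complement component C1q, had 837, 766 and 518 normalized counts in Ly6Chi monocytes, 27701, 10438 and 15376 in Ly6Clo monocytes and 244060 to 338390 in macrophages. The Ly6Clo mean was 6.10% of the macrophage mean. For Vcam1, the iron exporter Slc40a1, the lectin Fcna and the secreted Cd5l, the Ly6Clo mean was 0.603%, 0.645%, 0.787% and 0.628%.

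Over the 16 genes the Ly6Clo level had a median of 2.67% of the macrophage level, 2.83%, 1.16% and 1.91% in replicates 1, 2 and 3. The Ly6Chi level had a median of 0.276%. For the 8 erythroid markers, which summed to 359 to 886 TPM in Ly6Chi, 500 to 1400 in Ly6Clo and 8800 to 35000 TPM in macrophage libraries, the Ly6Clo median was 5.45% and the Ly6Chi median 3.41%. None of the erythroid markers was called between Ly6Chi and Ly6Clo monocytes by DESeq2 or edgeR, and 0 had an unadjusted p under 0.05, while 4 of 8 were lower in Ly6Chi monocytes without the 2 libraries that stand apart. The part of macrophage RNA in the Ly6Clo libraries was not tested. Siglec1, Hmox1, Axl and Mertk, also on the list, were not called between the monocyte groups.

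Genes under 1 TPM in all Ly6Chi libraries and at 1 TPM or more in all 9 others numbered 82 (0.191% of genes with a count), and 71 of them were among the 559. The leading ones were macrophage genes present at low levels in Ly6Clo monocytes. Ccr3, an eotaxin receptor, had 0.391, 0.879 and 0.840 TPM in Ly6Chi monocytes, 5.42, 8.29 and 6.32 TPM in Ly6Clo monocytes and 613 to 1167 TPM in macrophages. Igf1, a growth factor, had 0.514 to 0.877, then 3.37 to 5.69, then 206 to 360 TPM. The transporter Slco2b1, the lectin Cd209f, the ectoenzyme Cd38, Asb2, Rgs1, the chemokine Ccl8, the adhesion protein Cadm1 and Maged1 completed the first 10. Ccl8 had no count in Ly6Chi monocytes, 3.002 to 13.4 TPM in Ly6Clo monocytes and 59.1 to 244 TPM in macrophages. Without Ly6Clo replicate 2 the count was 143.

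At the upper end, non-classical monocyte genes split into those shared with macrophages and those held by Ly6Clo monocytes. Of 20, 15 were lower in Ly6Chi than in Ly6Clo monocytes (median -2.99), beside 4.96% of all genes. Itgax, Treml4, Cd36, Fabp4, Pparg, Ear2, Adgre4 and Fcgr4 were lower than in macrophages too. Cd36, a scavenger receptor that takes up fatty acids, had 7.99, 10.8 and 6.80 TPM in Ly6Chi monocytes, 301, 789 and 380 TPM in Ly6Clo monocytes and 66.2 to 98.0 TPM in macrophages. Fcgr4, an Fc receptor for IgG, had 45.3 to 84.6 TPM against 902 to 1749 and 274 to 339 TPM, and Itgax, the integrin subunit CD11c, 1.001 to 2.79 TPM against 20.6 to 68.7 and 15.6 to 29.03 TPM. Treml4 had 62.7 to 82.0 TPM against 787 to 1727 and 610 to 1072 TPM.

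Nr4a1, Ace, Eno3 and Itgal had another order: they were lower in Ly6Chi than in Ly6Clo monocytes, and higher than in both macrophage groups. Nr4a1 had 141, 87.6 and 78.0 TPM in Ly6Chi monocytes, 744, 371 and 709 TPM in Ly6Clo monocytes and 15.4 to 30.6 TPM in macrophages (log2 fold changes -2.55 ± 0.38, 2.20 ± 0.38 and 2.24 ± 0.38). Eno3, an enolase, had 13.7 to 25.3 TPM, then 542 to 910, then 4.44 to 11.7. Dusp16, a phosphatase of MAP kinases, was near 2 TPM in Ly6Chi monocytes (1.54 to 2.06) and 1.61 to 5.09 TPM in macrophages, and 103 to 143 TPM in Ly6Clo monocytes alone. Cx3cr1, the fractalkine receptor, did not pass the test between monocyte groups (184 to 238 against 69.5, the value of replicate 2, to 354 TPM; log2 fold change -0.16 ± 0.52).

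MHC class II genes, which present peptides to CD4 T cells, were lower in Ly6Chi than in Ly6Clo monocytes for 8 of 10 (median -2.59), where 4.96% of all genes were. H2-Aa, H2-Ab1, H2-Eb1 and H2-DMb1 were lower in all 3 contrasts, where 2.69% of all genes were, H2-DMb1 not with edgeR (largest adjusted p = 0.060). H2-Aa had 953, 575 and 1113 TPM in Ly6Chi monocytes, 6861, 4952 and 5786 TPM in Ly6Clo monocytes, 1788 to 2299 TPM in eYFP+ and 1732 to 3964 TPM in eYFP- macrophages. H2-Ab1 had 806 to 1612 TPM against 8311, 8831 and, in replicate 2, 24073 TPM in Ly6Clo monocytes. Dendritic cell markers were also higher in the Ly6Clo libraries, with a sum of 622 to 2850 TPM against 117 to 129 TPM in Ly6Chi monocytes and 4.26 to 42.6 TPM in macrophages, and 5 of 8 were lower in Ly6Chi than in Ly6Clo monocytes (2 with edgeR), beside 4.96% of all genes. Most of that sum was Cd209a, and Xcr1 and Siglech lay under 3 TPM in every monocyte library. Their part in the class II result was not tested. Of 13 MHC class I genes 1 was lower in each contrast (medians -0.02, 0.32 and 0.21), where 4.96%, 13.9% and 16.3% of all genes were. None was higher by DESeq2 or edgeR, and at an unadjusted p under 0.05 1 was higher, against eYFP+ macrophages. Without the 2 libraries that stand apart DESeq2 called 4 of 13 higher than in each macrophage group, 3 lower than in Ly6Clo monocytes and 2 lower than in each macrophage group.

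Lipid handling genes lower in all 3 contrasts were 7 of 16, where 2.69% of all genes were: Pparg, Fabp4, Cd36, the lipoprotein Apoe, the cholesterol exporters Abca1 and Abcg1, and their regulator Nr1h3. Apoe had 4408, 4586 and 6388 TPM in Ly6Chi monocytes, 19343, 27998 and 24414 TPM in Ly6Clo monocytes and 22056 to 40390 TPM in macrophages, so Ly6Clo monocytes were at 90.5% of the macrophage mean. Nr1h3 had 4.62 to 7.66, then 25.7 to 42.2, then 312 to 374 TPM, which put Ly6Clo monocytes at 11.03%. Abca1 had 0.573 to 0.884, then 1.98 to 4.17, then 9.50 to 37.8 TPM.

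Transcription factors lower in all 3 contrasts were 5 of 39, beside 2.69% of all genes: Maf, Nr1h3, Spic, Tcf7l2 and Bhlhe40. Maf overlapped with other libraries and was not called in all 3 with edgeR (largest adjusted p = 0.086). Tcf7l2, an effector of Wnt signalling, had 4.25, 3.36 and 4.71 TPM in Ly6Chi monocytes, 86.2, 725 and 119 TPM in Ly6Clo monocytes and 340 to 806 TPM in macrophages, with a log2 fold change against Ly6Clo monocytes of -6.29 ± 0.69. The highest Ly6Clo value was replicate 2. Bhlhe40 had 5.36 to 11.2 TPM against 79.3 to 82.3 TPM in Ly6Clo monocytes and 42.1 to 54.2 TPM in macrophages. Spic, which drives the program of iron-recycling macrophages, had 4.78 to 6.26, 35.4 to 72.3 and 1520 to 3235 TPM in the same order. Klf4 lay below Ly6Clo monocytes and above macrophages (6.82 to 9.54, 14.9 to 28.5 and 1.01 to 1.24 TPM).

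Among complement genes 6 of 16 were lower in all 3 contrasts, beside 2.69% of all genes: C1qa, C1qb, C1qc, the receptor C3ar1, the regulator Cd55 and the receptor Vsig4. Vsig4 had a value of 0 in Ly6Clo replicate 3 and so overlapped. Fcgrt, which salvages IgG, the integrin subunit Itgb5, the lectin Clec4b1 and the cytokine genes Il10 and Ccl4 were lower in all 3 as well. Il10 was at 0 in Ly6Clo replicate 2 and in 2 Ly6Chi libraries, so it overlapped too, and with edgeR neither Vsig4 nor Il10 was called in all 3 (largest adjusted p = 0.12 and 0.084). Fcgrt had 118 to 129 TPM in Ly6Chi monocytes, 462 to 812 TPM in Ly6Clo monocytes and 1807 to 2926 TPM in macrophages. Ccr7, the receptor that guides cells to lymph nodes, had no count in Ly6Chi monocytes, 9.13 to 51.1 TPM in Ly6Clo monocytes and 0 to 13.9 TPM in macrophages, so it overlapped with macrophages.

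Other lists are given beside the 8.62% of all genes called between Ly6Chi and Ly6Clo monocytes. None of 17 Toll-like receptor and LPS-sensing genes and none of 6 NADPH oxidase genes was called between them by DESeq2 or edgeR (6 and 1 had an unadjusted p under 0.05), while 5 of 6 oxidase genes were higher than in each macrophage group (10.6% and 11.1% of all genes). Lysosome genes were higher than in Ly6Clo monocytes for 3 of 26 and lower than in eYFP+ macrophages for 14 (13.9% of all genes). Growth factor receptors gave 1 call of 10 against Ly6Clo monocytes, ribosome biogenesis 4 of 19, and glycolysis 4 of 19. With edgeR the last 4 lists gave 2, 0, 1 and 3 calls. Without the 2 libraries that stand apart the Toll-like receptor list gave 3 calls (1 higher), the lysosome list 7 higher and 4 lower, growth factor receptors 2 higher and 3 lower, and glycolysis 4 higher and 3 lower.

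Cell cycle genes were counted in each contrast. DNA replication genes (22) gave 1 higher and 1 lower call against Ly6Clo monocytes, 2 and 3 against eYFP+ macrophages, and 17 lower calls against eYFP- macrophages (median -1.43). Of all genes 8.62%, 24.5% and, for the lower calls, 16.3% were called there, so the first 2 counts lay near the share of all genes. Mitosis genes (21) were higher for 3 against Ly6Clo monocytes and 4 against eYFP+ macrophages, and lower for 7 against eYFP- macrophages, beside 3.66%, 10.6% and 16.3% of all genes. Without Ly6Clo replicate 2 and eYFP+ replicate 1 the mitosis counts became 7 and 16 higher and 12 lower, and the replication counts 3 higher against Ly6Clo monocytes, 6 higher and 2 lower against eYFP+ and 19 lower against eYFP- macrophages. Calls over all genes rose as well in that fit, from 1859 to 2696, 5694 to 7534 and 5681 to 8601. Summed markers of NK, T and stromal cells were lowest in the Ly6Chi libraries. NK cell markers summed to 0.214 to 2.73 TPM in Ly6Chi, 12.3 to 18.8 in Ly6Clo and 4.06 to 57.8 TPM in macrophage libraries, and Ncr1 and Il2rb, 2 of the 6, were among the 559 lower genes, Ncr1 not with edgeR (largest adjusted p = 0.13). T cell markers summed to 0.655 to 1.31, 1.66 to 1.73 and 1.74 to 9.59 TPM, in the same order. Stromal and endothelial markers summed to 6.04 to 38.0, 62.2 to 115 and 47.2 to 114 TPM. In both of these lists 1 of 6 was lower in all 3 contrasts, where 2.69% of all genes were. Markers of eosinophils, basophils and mast cells had 1.96 to 48.7 TPM in Ly6Chi monocytes, 5.51, 0 and 561 TPM in Ly6Clo monocytes, 12.2 to 20.4 TPM in eYFP+ and 261 to 1338 TPM in eYFP- macrophages, and none was lower in all 3 by DESeq2. The part of these cells in the lower genes was not tested.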

How the data were processed

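Polyadenylated RNA of sorted bone marrow cells was amplified as cDNA, tagmented and sequenced without molecular identifiers, so counts are not independent molecules. Per the study's methods, reads were trimmed with Trimmomatic and Cutadapt, corrected with Rcorrector, freed of ribosomal RNA with SortMeRNA and aligned with segemehl to GRCm39. The authors deposited counts of read pairs assigned unambiguously to a gene by featureCounts (whether strand was used is not given in the sources used here), TPM values scaled by the authors per gene length and library, and variance-stabilised values, which were not used.

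Groups came from the sample labels. Counts of 56953 genes were fitted with DESeq2 1.42.0 in R 4.3.3, in 1 fit over 12 libraries with group as the only factor, Wald tests, Benjamini-Hochberg adjusted p under 0.05, independent filtering and the default outlier cutoff, which left 96 genes without an adjusted p in the Ly6Clo contrast. Normalized counts are counts divided by median-of-ratios size factors, and log2 fold changes are unshrunken. Since it is unknown whether replicates are separate mice, p-values measure the spread between libraries. TPM was used for levels across genes. Symbols (91.4% of identifiers) came from GENCODE M21, of another genome build, so only promoters carry coordinates.

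The members and lists were chosen with earlier results of these data known. Named genes needed a mean of at least 50 normalized counts, a call in the same direction in all 3 contrasts by DESeq2 and edgeR, no overlap of Ly6Chi libraries with the 9 others and a symbol that is not a predicted-gene name. They were ranked by the smallest Wald statistic, and the first 14 in each direction were taken, besides the first 10 of each TPM set and members of the 28 function and 8 cell type lists. 1 gene that met the rule and some list members are not reported here. The tests were tried on simulated counts. The alternatives were edgeR 4.0.16, TMM, a count minimum, no independent filtering, no outlier cutoff, the replicate block, fits of 6 libraries, a fold change of 2, limma 3.58.1 on log2(TPM + 1) or log2(TPM + 0.1), other TPM thresholds, and leaving out libraries.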

Additional observations from a re-analysis of the deposited data

How the results depend on the processing

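For the first 14 genes of the naming rule in each direction, of 140 higher and 241 lower genes that met it, the direction and the side of the threshold in all 3 contrasts stayed the same under the replicate block and without Ly6Clo replicate 2 and eYFP+ replicate 1. Their calls with edgeR were part of the rule. Among the leading genes by TPM, Spink2, Tarm1 and Mcf2l lost calls under the block. The counts of calls moved more. In the order Ly6Chi against Ly6Clo (1859), higher in all 3 (296) and lower in all 3 (559), edgeR gave 829, 170 and 297. Fits of the 6 libraries of each contrast gave 1191 against Ly6Clo and 312 lower in all 3, limma on log2(TPM + 1) 1219 and 309, and limma on log2(TPM + 0.1) 1097 and 368. Without the 2 libraries that stand apart, 8601 genes were called against eYFP- macrophages (5681 with them), 607 were higher in all 3, and 152 in place of 82 were undetected only in Ly6Chi monocytes. With TPM of at least 2 where held and under 0.5 where not, the sets held by or missing from Ly6Chi monocytes alone fell from 52 and 82 to 9 and 11.

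Leaving out each library in turn gave 1201 to 2290 calls against Ly6Clo monocytes, 4450 to 7529 against eYFP+ and 3985 to 7479 against eYFP- macrophages, 162 to 394 higher in all 3, 391 to 671 lower in all 3, 52 to 77 detected and 83 to 143 undetected only in Ly6Chi monocytes. The lowest values against Ly6Clo, 1228 and 1201, came without Ly6Chi replicate 1 and 2.

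Deviations from the group means did not pair libraries of the same number: between Ly6Chi and Ly6Clo monocytes they correlated at 0.111, 0.0435 and 0.0023 over 13130 genes for replicates 1, 2 and 3. Under the replicate block 2255 genes were called against Ly6Clo monocytes, and the balance turned from 789 higher and 1070 lower to 1198 higher and 1057 lower. The cause was not tested. With the block and at least 10 counts in 3 libraries it was 821 and 1004. The other counts over all genes stayed within 1.5 times under the block.

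A difference under the spread of 3 libraries per group could not be called. Genes near 1 TPM enter or leave the presence sets with small changes of level.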
